A study of Mus musculus with 12 samples.

Results

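Lcn2 and Steap4 are 2 of the 5723 genes with a probe of a single symbol on the array, and each is measured by 1 probe, number 3900 for Lcn2 and number 7884 for Steap4. They were taken by symbol from the platform annotation, and were chosen by their measured log2 change with IL-1β in wild-type glia and its difference from IL-1R1-/- glia. Their responses in both genotypes, and the difference between these, are therefore given as descriptions with no test. The arrays hold primary mixed glial cells of mice, kept for 10 to 12 days after isolation and then treated for 4 hours. The groups used here are wild-type glia with vehicle, wild-type glia with 10 ng/ml rrIL-1β (3 replicates each), IL-1R1-/- glia with vehicle, and IL-1R1-/- glia with 10 ng/ml rrIL-1β (2 replicates each; the label of 1 of these writes IL-1β). IL-1R1 is the signalling receptor for interleukin-1, and the sources used here do not describe the deleted allele. The 2 treatments of a replicate were paired, and the replicates are described as independent biological replicates.

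Lipocalin-2, the product of Lcn2, is a small secreted protein that binds iron-loaded siderophores and so keeps iron from bacteria, and it is released by reactive astrocytes, by microglia and by neutrophils. Steap4 encodes a six-transmembrane metalloreductase that reduces ferric iron and cupric copper at membranes, and the reduced iron can be carried by divalent metal transporters. It was first described as a transcript induced by tumour necrosis factor. Both genes are textbook targets of inflammatory signalling through NF-κB and C/EBP factors, and both stand on the published list of pan-reactive astrocyte genes.

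The 250 bases before the RefSeq start of each gene (GRCm38.p6) are shown because both members were higher on the same arrays. Capitals mark matches, on either strand, to a κB-like motif (GGGANTNCC), a C/EBP-like motif (TTGCNNAA) or a STAT-like motif (TTCNNNGAA). These motifs were chosen after the windows had been seen. The Lcn2 window is chr2:32387740-32387989 on the minus strand and the Steap4 window is chr5:7960222-7960471 on the plus strand.
Lcn2: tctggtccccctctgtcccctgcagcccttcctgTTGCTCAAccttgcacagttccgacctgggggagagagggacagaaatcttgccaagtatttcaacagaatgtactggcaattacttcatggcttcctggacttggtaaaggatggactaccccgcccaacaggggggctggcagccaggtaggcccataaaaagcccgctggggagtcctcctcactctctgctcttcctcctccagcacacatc
Steap4: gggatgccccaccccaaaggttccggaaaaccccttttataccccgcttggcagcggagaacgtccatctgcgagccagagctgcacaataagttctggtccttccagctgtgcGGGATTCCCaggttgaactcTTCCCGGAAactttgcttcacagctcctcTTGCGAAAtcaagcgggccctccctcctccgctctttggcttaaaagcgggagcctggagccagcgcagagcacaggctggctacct
The Lcn2 window held 1 match, to the C/EBP-like motif at position -216, counted from the start with -1 as the base before it. The Steap4 window held 1 match to each motif, κB-like at -136, STAT-like at -116 and C/EBP-like at -87, and no matches overlapped. Of 32851 windows of the same length, 3.36% held the κB-like, 9.56% the C/EBP-like and 7.02% the STAT-like motif. A match is a description of letters and not a binding site.

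Of the 12 deposited columns, both arrays of IL-1R1-/- replicate 3 were left out, because they equalled other columns up to 1 ratio. Its vehicle array equalled wild-type vehicle replicate 1 at 99.6% of shared probes. Its IL-1β array equalled IL-1R1-/- vehicle replicate 1 at 99.2%. The matched arrays of the other cultures were kept, and which label of each matched pair is right was not tested. Lcn2 had no value in either of the columns left out, and Steap4 had a value in both. The other 10 arrays had median intensities between 4649 and 60399, and both members were among the 5713 of 8734 probes measured on every one. Il1r1 itself, by its only complete probe, read log2 13.73 to 14.07 in wild-type and 13.86 to 14.06 in IL-1R1-/- vehicle glia, which overlap; whether the probe lies in the deleted part is unknown, so it checks no label. The microglial genes Tyrobp, C1qc and Itgam lay at the 74.8 percentile or above on every array, but Tmem119 between 13.2 and 75.5. The astrocyte gene Glul lay at the 81.2 percentile or above and Slc1a2 between 2.398 and 64.3, while Gfap was not analysed here. In mixed cells, a change in the number of cells of a type and a change of RNA per cell cannot be told apart.

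Lcn2 was higher with IL-1β in every wild-type culture. The deposited intensity went from 47725 with vehicle to 261903 with IL-1β in wild-type replicate 1, from 3089 to 25802.5 in replicate 2 and from 23455 to 136149 in replicate 3, which are ratios of 5.49, 8.35 and 5.80. Without the receptor it went from 26350.4 to 29157 in replicate 1 and from 49994.5 to 57467 in replicate 2, ratios of 1.11 and 1.15. The scale of the deposited values differs between cultures, so levels across cultures are compared after quantile normalization, on the log2 scale. There Lcn2 read 15.60, 13.61 and 14.32 in the wild-type vehicle arrays and 17.91, 17.09 and 17.21 in the wild-type IL-1β arrays. It read 13.99 and 14.16 in IL-1R1-/- vehicle glia and 14.14 and 14.31 in IL-1R1-/- glia with IL-1β. The 3 wild-type IL-1β arrays stood above all 7 others.

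The order of the Lcn2 group means ran from IL-1R1-/- vehicle (14.08 ± 0.12, SD, n = 2) through IL-1R1-/- IL-1β (14.23 ± 0.13, n = 2) and wild-type vehicle (14.51 ± 1.01, n = 3) to wild-type IL-1β (17.41 ± 0.44, n = 3). The first 3 of these overlapped. The wild-type vehicle arrays reached both below and above all 4 IL-1R1-/- arrays, and the ranges of the 2 IL-1R1-/- groups overlapped. Differences within the IL-1R1-/- cultures are given below. Wild-type vehicle glia varied most. Lcn2 was brighter than 90.5% of probes in replicate 1, than 46.1% in replicate 3 and than 5.76% in replicate 2, where it was 1.80 times the lowest value on its array. With IL-1β it was brighter than 97.9% to 99.1% of probes in all 3 cultures, and the range of log2 levels was 0.82, against 1.99 with vehicle. The sources used here do not say how much background these intensities still hold.

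Steap4 was also higher with IL-1β in every wild-type culture. Its deposited intensity went from 14422 to 117002 in replicate 1, from 3706 to 11361 in replicate 2 and from 27960.2 to 121158 in replicate 3, ratios of 8.11, 3.07 and 4.33. In IL-1R1-/- glia it went from 35813 to 45605.5 in replicate 1 and from 101913 to 78045 in replicate 2, ratios of 1.27 and 0.766, so the 2 cultures moved in opposite directions. On the normalized log2 scale Steap4 read 14.08, 13.90 and 14.58 in wild-type vehicle glia and 16.70, 15.74 and 17.05 with IL-1β. In IL-1R1-/- glia it read 14.49 and 15.04 with vehicle and 14.83 and 14.82 with IL-1β. The wild-type IL-1β arrays again stood above all others.

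The order of the Steap4 group means differed from that of Lcn2. It ran from wild-type vehicle (14.19 ± 0.35, SD, n = 3) through IL-1R1-/- vehicle (14.77 ± 0.39, n = 2) and IL-1R1-/- IL-1β (14.82 ± 0.01, n = 2) to wild-type IL-1β (16.50 ± 0.68, n = 3). The vehicle groups of the genotypes overlapped, and the IL-1R1-/- IL-1β arrays lay within the range of the IL-1R1-/- vehicle arrays. Steap4 varied more with IL-1β (a log2 range of 1.31 in wild-type glia) than with vehicle (0.68), the reverse of Lcn2. Steap4 was brighter than 91.9% to 97.8% of probes in wild-type glia with IL-1β and than 17.5% to 62.1% with vehicle.

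**Figure D1:**
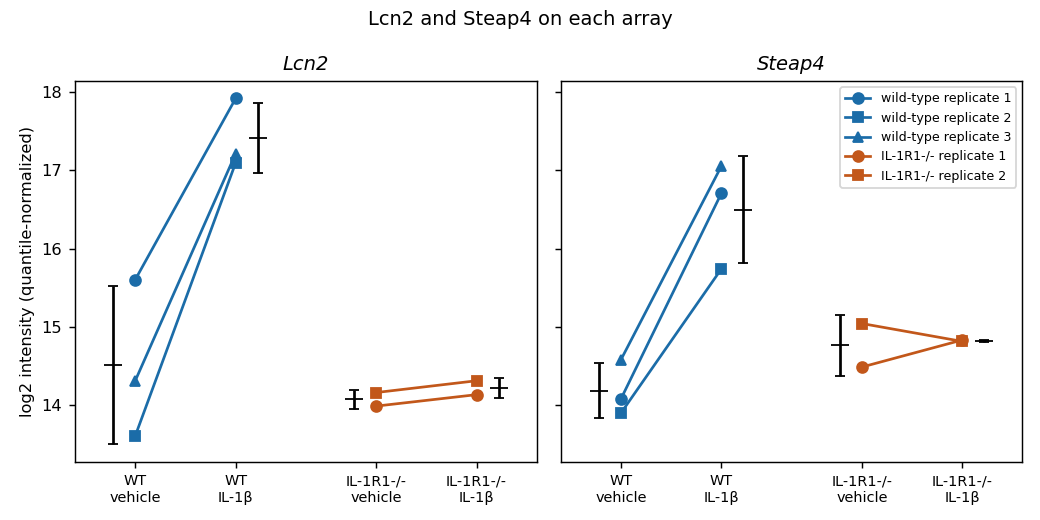
Quantile-normalized log2 intensity of Lcn2 (left) and Steap4 (right) on each of 10 arrays; lines join the 2 arrays of a culture, and black bars are group means ± SD. The wild-type IL-1β arrays stand highest for both genes, Lcn2 between 17.09 and 17.91 and Steap4 between 15.74 and 17.05, and the wild-type vehicle arrays of Lcn2 spread from 13.61 to 15.60.

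Within cultures, the normalized log2 difference of Lcn2 (IL-1β minus vehicle) was 2.31, 3.48 and 2.89 in wild-type replicates 1, 2 and 3, a mean of 2.89 ± 0.21 (SE of the fit, n = 3 pairs), or 7.44-fold. For Steap4 it was 2.62, 1.84 and 2.47, a mean of 2.31 ± 0.20 (SE of the fit, n = 3 pairs), or 4.95-fold. The SD between the 3 pairs themselves was 0.59 for Lcn2 and 0.42 for Steap4. The cultures ranked in opposite order for the members: replicate 2 had the largest Lcn2 difference and the smallest Steap4 difference, and replicate 1 the reverse. The same opposite order was seen in the deposited intensities and after removal of the position trend described next; with 3 cultures it is a description only. Replicate 1, with the smallest Lcn2 difference, had the highest Lcn2 level both with vehicle and with IL-1β. Among 5713 probes the Lcn2 difference ranked 5, 1 and 1 from the top in the 3 cultures and the Steap4 difference 3, 11 and 3, the property for which both had been chosen.

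Fold changes in wild-type glia drift with the place of a probe in the probe order, so the neighbours of each member were examined. The 13 tested probes within 12 places of Lcn2 had wild-type log2 changes from -0.55 to 0.01, with a median of -0.34. The 15 around Steap4 had changes from -0.14 to 0.51, with a median of 0.24. Lcn2 thus sat in a stretch of lower and Steap4 in a stretch of higher values, and both stood far from their neighbours. With a smooth trend over the inferred plate layout removed, the neighbours had medians of -0.03 and 0.01. The wild-type difference became 3.06 ± 0.19 (SE, n = 3 pairs) for Lcn2 and 2.09 ± 0.14 (SE, n = 3 pairs) for Steap4. The gap between the members therefore widened, from 7.44-fold against 4.95-fold to 8.32-fold against 4.25-fold; these are differences of each probe with itself, not levels of 1 gene against the other.

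**Figure D2:**
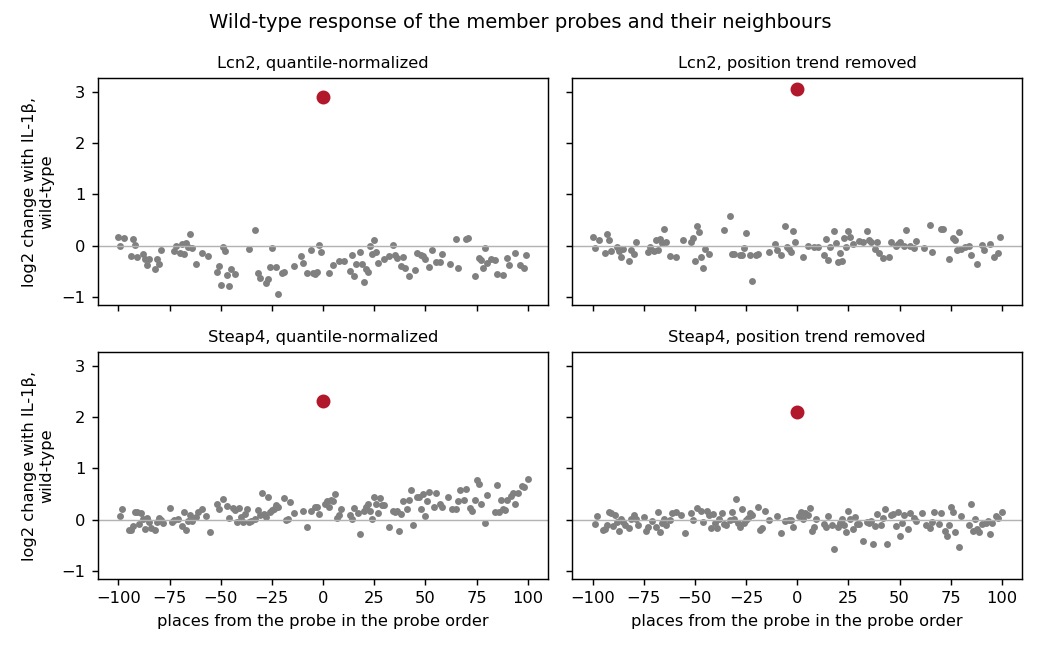
Log2 change with IL-1β in wild-type glia (y axis) for tested probes up to 100 places before and after Lcn2 (top) and Steap4 (bottom, member in red), before (left) and after (right) removal of the position trend. Neighbours drift around 0 on the left and centre on 0 on the right, while Lcn2 stays at 2.89 and 3.06 and Steap4 at 2.31 and 2.09.

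The IL-1R1-/- cultures ask whether the response needs this receptor, but they entered the difference by which the members were chosen, so a small response there was partly fixed by the choice. The log2 difference of Lcn2 was 0.146 and 0.150 in the 2 cultures. Its mean was 0.15 ± 0.26 (SE of the fit, n = 2 pairs), with a 95% interval from -0.40 to 0.70. For Steap4 the differences were 0.34 and -0.23. Their mean was 0.058 ± 0.24 (SE of the fit, n = 2 pairs), with an interval from -0.47 to 0.58. These SEs use a spread shared by both genotypes. The SD between the 2 pairs themselves was 0.003 for Lcn2 and 0.41 for Steap4. As ratios the intervals run from 0.756 to 1.63 for Lcn2 and from 0.724 to 1.498 for Steap4, so smaller responses of either sign are within the error. With the position trend removed the means were -0.069 and 0.036. The wild-type minus IL-1R1-/- difference of the responses, given as a description, was 2.75 ± 0.33 (SE) for Lcn2 and 2.25 ± 0.32 (SE) for Steap4 (n = 3 and 2 pairs).

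Between the genotypes with vehicle alone, neither member passed; these arrays also enter the difference by which the members were chosen. Lcn2 was lower in IL-1R1-/- than in wild-type glia by a log2 difference of -0.43 ± 0.41 (SE, n = 2 and 3), with a 95% interval from -1.33 to 0.46 (limma adjusted p = 0.837). Steap4 had a difference of 0.58 ± 0.34 (SE, n = 2 and 3), with an interval from -0.15 to 1.30 (limma adjusted p = 0.698). The 2 estimates have opposite signs, and both intervals include 0. Over all probes 0.0175% passed. The Lcn2 value rests on wild-type replicate 1: without that culture it was 0.12, and without wild-type replicate 2 it was -0.90. The vehicle array of wild-type replicate 1 is also the array that equalled the left-out IL-1R1-/- vehicle column.

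**Figure D3:**
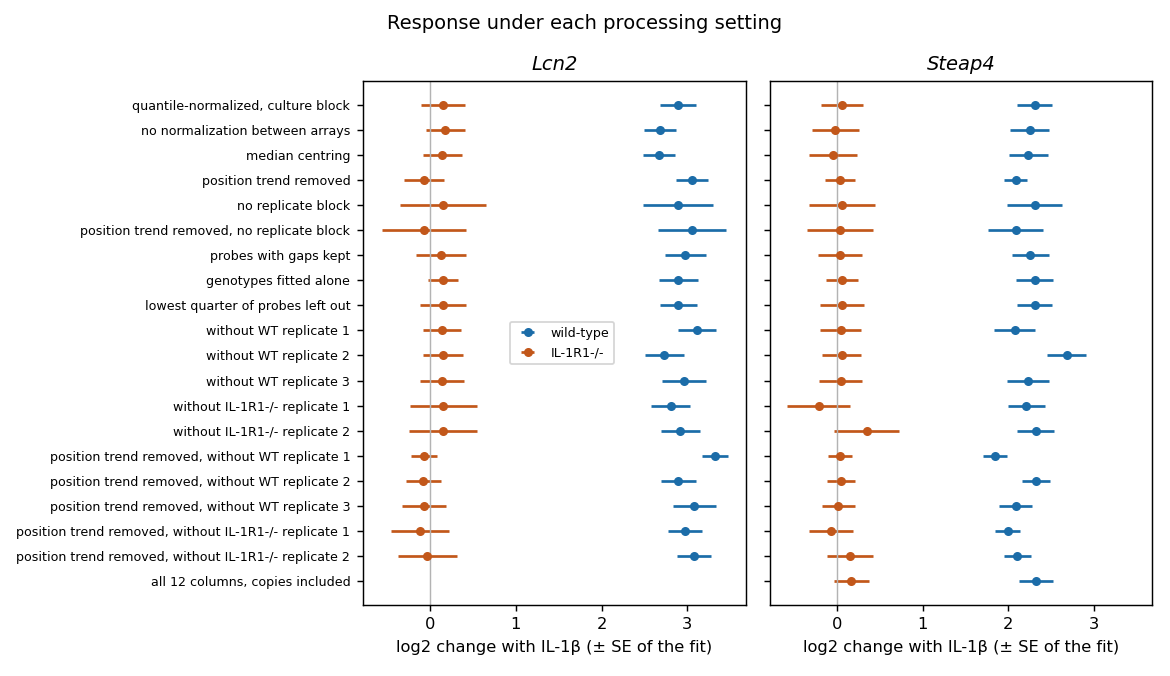
Log2 change with IL-1β (x axis, bars are the SE of the fit) for Lcn2 (left) and Steap4 (right) under each processing setting (rows), in wild-type (blue) and IL-1R1-/- (orange) glia. Wild-type values run from 2.67 to 3.33 for Lcn2 and from 1.85 to 2.68 for Steap4, and IL-1R1-/- values from -0.12 to 0.17 and from -0.21 to 0.35. Lcn2 has no value with all 12 columns.

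The other genes of metal handling were compared with the members through 5 lists (iron, heme, lipocalins and lipocalin-2 partners, Steap and related reductases, and copper, zinc and manganese). Of 131 listed genes 49 had a probe under their symbol, and 37 of these had a value on all 10 arrays; the other 82 were not analysed here. In wild-type glia 4 of the 37 passed in limma, 1 higher and 3 lower, where 6.18% of all probes passed (4.55% higher and 1.63% lower). Their median log2 change was -0.04, as it was over all probes, and the largest change of either sign was -0.87. Leaving out wild-type replicate 1 gave a count of 0, replicate 2 a count of 1 and replicate 3 a count of 2. Leaving out IL-1R1-/- replicate 1 gave 2, and replicate 2 gave 1. With the position trend removed 1 of 37 passed, against 0.473% of all probes. Of the same 37 genes 0 passed in IL-1R1-/- glia by limma, with 5 at an unadjusted p under 0.05. Over all probes 0% passed there (0 of 5713, with 434 at an unadjusted p under 0.05).

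Among iron genes none of 11 passed in wild-type glia (limma; 3 had an unadjusted p under 0.05, as had 1205 of all 5713 probes). Trf, which encodes the iron carrier transferrin, had -0.61 on the log2 scale (SE 0.22, limma adjusted p = 0.115), and Tfrc, its receptor, -0.54 (adjusted p = 0.0995). Fbxl5, the iron sensor that directs iron regulatory protein to degradation, had 0.52, and Slc40a1, the iron exporter ferroportin, 0.03. Aco1, iron regulatory protein 1, had -0.37 by its brighter and 0.22 by its other probe. With the trend removed no iron gene had a change beyond 0.26 in size. Ireb2, the other iron regulatory protein, lacked a wild-type culture and was read only in a fit that keeps gaps, in which 11.2% of probes passed. It had -0.66 and -1.86 in 2 wild-type cultures (limma adjusted p = 0.0288) and 0.36 and 0.47 in IL-1R1-/- glia. In the deposited intensities these changes were -0.91 and -1.04, and 0.35 and 0.02, so their size depends on the normalization. Hfe had -0.33 by its complete probe (limma adjusted p = 0.309). A second Hfe probe lacked wild-type replicate 1 and had 1.04 and 0.88 in replicates 2 and 3 in the fit that keeps gaps (limma adjusted p = 0.0294). It had 0.20 and -0.17 in IL-1R1-/- glia. The counts of metal-handling genes take the brightest probe of a gene and leave this probe out. Ireb2 and the second Hfe probe were named after their values were seen.

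Of 9 heme genes 2 passed, 1 higher and 1 lower, where 6.18% of all probes passed, and the list was not tested as a set. Alas1, the first enzyme of heme synthesis, fell by 0.73 on the log2 scale by its complete probe (SE 0.20, limma adjusted p = 0.0451). That probe had -0.33, -1.26 and -0.61 in the cultures. A second Alas1 probe, which lacked an IL-1R1-/- culture, had -0.06, 0.07 and 0.52 there. In the fit that keeps gaps it had 0.18 (limma adjusted p = 0.602), so the probes disagree. Abcb6, a porphyrin transporter, rose by 0.78 (SE 0.18, adjusted p = 0.0291; 1.00, 0.45 and 0.90). Hmox1, heme oxygenase 1, had 0.18, and Alad, Uros and Alas2 had 0.30, 0.27 and 0.15. With the trend removed Alas1 and Abcb6 had -0.25 and 0.24 and no longer passed (adjusted p = 0.504 and 0.616).

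Of 12 genes of copper, zinc and manganese handling 2 passed, both lower, where 1.63% of all probes passed as lower. This list was not tested as a set. Atox1, a copper chaperone, had -0.69 (SE 0.17, adjusted p = 0.031; -0.84, -0.59 and -0.65), and Mt1, a metallothionein that binds zinc and copper, -0.87 (SE 0.22, adjusted p = 0.0373; -0.55, -0.58 and -1.50). They had -0.47 and -0.61 with the trend removed and no longer passed (adjusted p = 0.15 and 0.181). Among the others Slc30a1, a zinc exporter, had -0.40, Cox11 0.37, and the zinc transporters Slc39a4 and Slc39a13 had 0.29 and -0.26. Mtf1, the zinc-sensing activator of metallothionein genes, lacked an IL-1R1-/- culture and was named after its values were seen. It rose in the fit that keeps gaps (0.86, SE 0.19, adjusted p = 0.0288; 0.78, 1.22 and 0.57 in the wild-type cultures) and had 0.27 in IL-1R1-/- replicate 1. In IL-1R1-/- glia Alas1, Abcb6, Atox1 and Mt1 had 0.16, -0.14, -0.19 and 0.52, and none passed.

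None of the genes on the lipocalin and Steap lists passed in wild-type glia by its brightest complete probe, with the position trend left in. Steap3, the ferrireductase of the transferrin cycle, had a log2 change of -0.03 (0.21, -0.06 and -0.25 in the wild-type cultures) by its complete probe. A second Steap3 probe had values in 1 wild-type culture, replicate 1, and read 2.35 there, against 0.21 for the complete probe, and 0.19 and 0.23 in IL-1R1-/- glia; the 2 probes disagree and the value has no replicate. Nqo1, a quinone reductase, had 0.26, and Cybb, a subunit of the phagocyte NADPH oxidase, -0.04 by its complete probe. A second Cybb probe had values in 1 wild-type culture, replicate 2, and read 1.19 there, and 0.26 and 0.47 in IL-1R1-/- glia. Cyb5r3, a cytochrome b5 reductase, had -0.53 by its complete probe (limma adjusted p = 0.101) and fell by 0.74 with the trend removed (limma adjusted p = 0.0161). A second Cyb5r3 probe read 0.24 and 0.23 in wild-type replicates 2 and 3, and 0.25 in IL-1R1-/- replicate 1, so the Cyb5r3 probes disagree. Ptgds, a brain lipocalin and prostaglandin D synthase, had -0.20 (adjusted p = 0.638), and Bdh2, which makes a mammalian siderophore, had -0.55 and 0.30 in 2 wild-type cultures.

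**Figure D4:**
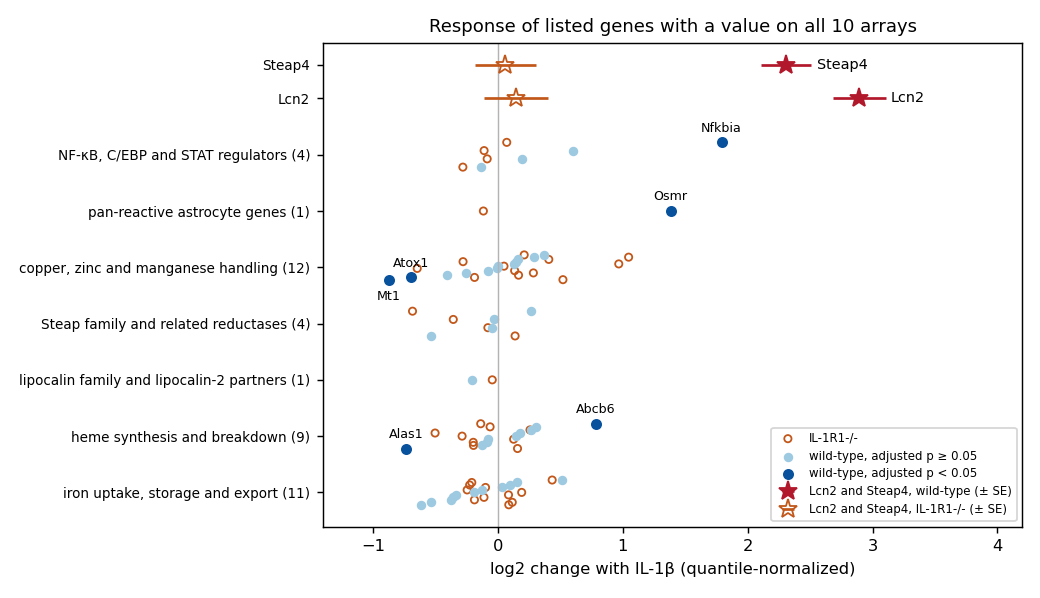
Log2 change with IL-1β (x axis, quantile-normalized) of each listed gene with a value on all 10 arrays, by list (number of genes in brackets), in wild-type (filled blue, dark where the limma adjusted p is under 0.05) and IL-1R1-/- glia (open orange); stars are Lcn2 and Steap4 ± SE. The metal-handling genes lie between -0.87 and 0.78 in wild-type glia, and the stars at 2.89 and 2.31.

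The published pan-reactive astrocyte list that holds both members could be read for 1 further gene on all arrays. Osmr, the oncostatin M receptor, rose by 1.38 ± 0.19 (log2, SE, n = 3 pairs, adjusted p = 0.00171; 1.51, 1.65 and 1.00), had 0.03 and -0.26 in IL-1R1-/- glia, and kept 0.84 with the trend removed (adjusted p = 0.023). It did not pass with the trend removed and the culture block left out, or with the trend removed and wild-type replicate 2 left out. S1pr3, a sphingosine 1-phosphate receptor, and Cd44, the hyaluronan receptor, each lacked 1 wild-type culture and were named after their values were seen. S1pr3 had 1.61 and 1.32 in 2 wild-type cultures and 0.37 and -0.13 in IL-1R1-/- glia. Cd44 had 1.39 and 1.96, and 0.65 and -0.64. Both rose in the fit that keeps gaps (adjusted p = 0.011 and 0.0174).

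Among NF-κB, C/EBP and STAT regulators 1 of 4 passed, where 6.18% of all probes passed. Nfkbia, whose product IκBα retains NF-κB outside the nucleus, rose by 1.79 ± 0.19 (log2, SE, n = 3 pairs, adjusted p = 0.000312), and its second probe had 1.57. Nfkbiz, an NF-κB cofactor known to be needed for Lcn2 induction, had 0.60 (adjusted p = 0.0693) and 0.05 with the trend removed. Nfkb2 had 0.19 and Cebpa -0.13, Cebpd had 0.06 and 0.07 in 2 wild-type cultures, and Stat3 0.02 and 0.85.

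Markers of the cell types that could carry these genes were read on the same arrays. Of 3 neutrophil markers 0 passed in wild-type glia (limma; 0 at an unadjusted p under 0.05), with changes between 0.02 and 0.20, and S100a8 lay between the 0.63 and 24.1 percentiles, Camp between 0.648 and 48.03 and Mpo between 49.7 and 80.8. Of 5 microglia and macrophage markers 0 passed (1 at an unadjusted p under 0.05). Of 3 astrocyte markers Glul fell, by 0.84 by its brighter probe. Of 5 fibroblast, endothelial and mural markers Emcn rose, by 0.84, and neither passed with the trend removed. The other Glul probe had -0.65, -0.42 and 0.58 in the deposited intensities of the wild-type cultures. In the fit that keeps gaps it had -0.10 (limma adjusted p = 0.818), so the Glul probes disagree. The astrocyte sums below take the brighter Glul probe. The log2 of the summed astrocyte markers ran from 16.91 to 17.20 in wild-type vehicle and from 16.48 to 16.56 in wild-type IL-1β arrays, and that of the fibroblast, endothelial and mural markers from 16.16 to 16.74 and from 16.44 to 16.93. For IL-1R1-/- glia these sums ran from 16.49 to 17.03 with vehicle and 16.34 to 16.90 with IL-1β for astrocytes, and from 16.48 to 16.56 and 16.38 to 16.65 for the other list. Their part in the members' values was not tested.

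The genes whose pattern was most like each member were ranked by Pearson r over the 10 arrays, which share cultures in pairs, so r is a description. The members were chosen by their changes on these same arrays. A high r with each other, or with other genes that rose there, was therefore partly fixed by the choice. For Lcn2 these were Nfkbia (r = 0.92), Gbp3, an interferon-inducible GTPase (0.907), Ccl12, a chemokine for monocytes (0.904), Plekha3 (0.903) and Ptx3, a long pentraxin (0.886). For Steap4 they were Osmr (0.949), Ccl12 (0.942), Rrp7a (0.928), Smim3 (0.926) and Nfkbia (0.911). Nfkbia and Ccl12 stood on both lists. With the trend removed the r of Rrp7a with Steap4 was 0.487, and the others had r between 0.814 and 0.929. Lcn2 and Steap4 had r = 0.841 with each other, which put Steap4 at place 13 among genes like Lcn2 and Lcn2 at place 19 among genes like Steap4, and 0.882 with the trend removed. With vehicle in wild-type replicate 1, Lcn2 was 0.37 and Gbp3 0.13 above its own mean over the arrays. The deviations there were -1.04 for Steap4, -0.37 for Nfkbia, -0.44 for Ccl12, -0.089 for Plekha3 and -1.34 for Ptx3.

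**Figure D5:**
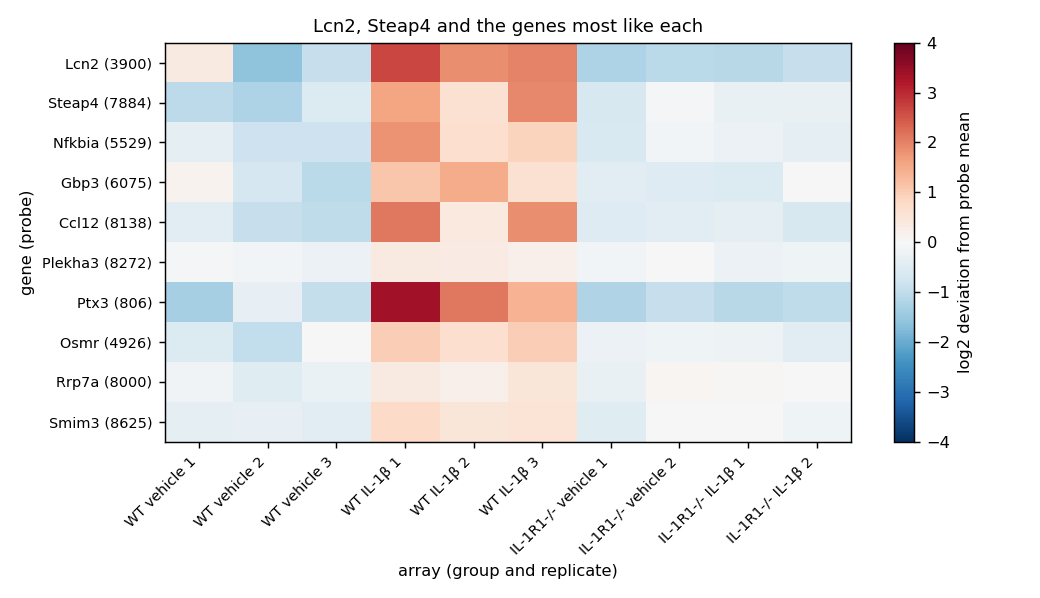
Log2 deviation of each array (columns) from the probe's mean over 10 arrays (colour) for Lcn2, Steap4 and the genes most like each (rows, probe number in brackets). All rows are reddest in the 3 wild-type IL-1β arrays, and in wild-type vehicle replicate 1 Lcn2 is at 0.37 while Steap4 is at -1.04.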

How the data were processed

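The 12 columns are linear spot intensities deposited by the authors from cDNA labelled with 33P. No source used here names their software, background correction, normalization or filter. Both arrays of IL-1R1-/- replicate 3 were left out as copies (equal within 1e-04 on the log2 scale). Probes with gaps on the other 10 were left out, except in the fit that keeps gaps. Intensities were log2-transformed, quantile-normalized and fitted with limma 3.58.1 (R 4.3.3), with a block for each culture and, for each genotype, 1 term for IL-1β. For the vehicle comparison, group means were fitted and cultures entered as random blocks (statmod 1.5.0, correlation 0.388). P-values are two-sided and were adjusted by Benjamini and Hochberg, with a threshold of 0.05. The adjustment ran over 5713 probes, and over 8724 for the wild-type response in the fit that keeps gaps. SEs and intervals rest on 1 spread per probe, shared by both genotypes and moderated across probes by limma. The number of arrays limits the precision.

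Pairing comes from the design text. Deviations of the 2 arrays of a culture correlated at 0.468, 0.582 and 0.261 (wild-type) and 0.562 (IL-1R1-/-, 1 value, since 2 cultures mirror each other).

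The position trend was smoothed per array by loess (span 0.2, degree 2) over rows and columns of plates of 384 inferred from the probe order, separately for the first 11 and the later plates. The fit was tested on simulated data.

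The members, lists and tests were chosen with earlier results of these data known. Named genes are those past the threshold in each list, up to 4 others per list by size of change, a set of defining genes, and the 5 most alike per member; 1 gene takes its brightest complete probe. Names come from the platform annotation (7153 probes with 1 symbol, 387 with several, 1194 with none), and promoter windows from RefSeq, which matched both members.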

Additional observations from a re-analysis of the deposited data

Results flagged for a closer look

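The response of Nfkbia differed between the genotypes in the test of the difference itself. The wild-type response exceeded the IL-1R1-/- response by 1.72 on the log2 scale (limma adjusted p = 0.0423; 1.64 and adjusted p = 0.0191 with the position trend removed), higher in each of 3 wild-type cultures (2.16, 1.49 and 1.72) than in both IL-1R1-/- cultures (0.37 and -0.23). In that test 0.158% of all probes passed (9 of 5713), both before and after removal of the trend. In the deposited intensities the second Nfkbia probe had log2 changes of 2.30, 1.52 and 0.85 in the wild-type cultures, and -0.35 and -0.34 in the IL-1R1-/- cultures. Lcn2 and Steap4 were chosen with the difference of responses in view and were not tested for it.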

How the results depend on the processing

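The wild-type response of Lcn2 kept its sign and stayed within 1 SD between cultures in 18 of 18 other settings (2.67 to 3.33), and that of Steap4 in 18 of 19 (1.85 to 2.68). With cultures left out in turn, with and without the position trend, the wild-type response ran from 2.73 to 3.33 for Lcn2 and from 1.85 to 2.68 for Steap4, the difference of responses from 2.58 to 3.403 and from 1.81 to 2.63, the IL-1R1-/- response from -0.12 to 0.15 and from -0.21 to 0.35, and the vehicle difference from -0.90 to 0.36 and from 0.17 to 0.84. The IL-1R1-/- response of Lcn2 turned its sign with the trend removed (-0.069, with or without the replicate block), also without wild-type replicate 1, 2 or 3 (-0.073, -0.079 and -0.076) or IL-1R1-/- replicate 1 or 2 (-0.12 and -0.034). That of Steap4 turned without normalization (-0.018), with median centring (-0.049) and without IL-1R1-/- replicate 1 (-0.21, and -0.071 with the trend removed). The vehicle difference of Lcn2 turned without normalization (1.26), where the scale of each culture enters it, and when wild-type replicate 1 was dropped (0.12; 0.36 if the trend was removed too). None of the vehicle differences of the members passed in any setting (lowest adjusted p = 0.197), and the cause of the turned signs was not tested.

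With all 12 columns Lcn2 could not be fitted, for want of values. The count of metal-handling genes, 4 of 37, was 1 with the trend removed and 2 with the genotypes fitted alone. It was 0 without the replicate block, with or without the trend, 0 on 12 columns, and 0 to 2 with a culture left out. With gaps kept it was 9 of the 49 genes with a probe (5 higher, 4 lower), where 11.2% of 8724 probes passed. Of the higher, Hmox2, Steap3 and Cybb each rest on 1 wild-type culture. The count of reactive astrocyte genes, 1 of 1, was 3 of 3 with gaps kept. It was 0 with the trend removed and no replicate block, and 0 to 2 with a culture left out. Among all probes the wild-type count of 353 (260 higher, 93 lower) became 27 with the trend removed (19 and 8), 14 without the block (14 and 0), 9 without both (9 and 0), 979 with gaps kept, 150 on 12 columns (139 and 11), and 175 with genotypes fitted alone. Without wild-type replicate 1, 2 or 3 it was 54, 81 and 343 (20, 22 and 21 with the trend removed), and without IL-1R1-/- replicate 1 or 2 it was 225 and 102 (30 and 22). Leaving out the replicate block left the log2 estimates of the members as they were, and the members had no call that it could end. It raised the SE of the wild-type response from 0.21 to 0.41 for Lcn2 and from 0.20 to 0.32 for Steap4. The SE of the IL-1R1-/- response went from 0.26 to 0.498 and from 0.24 to 0.39.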
